A study of Mus musculus with 12 samples.

Results

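A set of 9 genes of cardiac transient outward and Kv1 potassium channels, namely Kcnd2, Kcnd3, Kcnip2, Kcna1, Kcna2, Kcna4, Kcna5, Kcnab1 and Kcnv2, were followed by gene symbol in a table of 51826 entries, and each of the 9 genes was found and passed the filter on low counts in every comparison. The list holds no Kv2 pore subunit itself. Kcnv2 is its Kv2-associated member. Poly(A) RNA was sequenced from both chamber types of 6 female FvB mice aged 10 weeks, 3 of them CUG960 +dox (V119, V120 and V123) and 3 MHCrtTA +dox controls (V327, V333 and V334), so that 1 atrial and 1 ventricular library per mouse gave 12 libraries. CUG960 mice were homozygous for the TREDT960I transgene, which holds 960 interrupted CUG repeats in human DMPK exons under a tetracycline-responsive promoter, and hemizygous for MHCrtTA. Control mice were hemizygous for MHCrtTA without the repeat transgene and came from separate matings, so litter and genotype cannot be told apart. Both groups received doxycycline (dox) from postnatal day 1, and rtTA was driven by the alpha myosin heavy chain promoter, so the repeat RNA was made in cardiomyocytes of the transgenic mice, whereas the libraries were made from whole chamber tissue.

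The Kv4 subunits encoded by Kcnd2 and Kcnd3 line the pore of the fast transient outward current, which repolarizes the cell early in the action potential, and the calcium-binding protein KChIP2, encoded by Kcnip2, brings them to the membrane and slows their inactivation. Kv1.4, from Kcna4, carries the slow transient outward current, while Kv1.5, from Kcna5, carries a rapidly activating delayed rectifier current. Kv1.1 and Kv1.2, from Kcna1 and Kcna2, are best known from axons. Kcnab1 encodes a cytoplasmic beta subunit that can speed inactivation of Kv1 channels. Kv8.2, from Kcnv2, forms no channel alone and modifies Kv2 channels with which it assembles. In mouse heart the fast transient outward current is a main repolarizing current, and it is larger in the ventricle's outer wall than in its inner wall.

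All the pore and modifier subunits of the list have a selectivity filter of related sequence. The coding stretches around the filter, of 57 bases each, are shown for 6 of them (GRCm38, GENCODE annotation, 5′ to 3′ on the coding strand). Capitals mark the codons of the filter signature, of which the second is CTG in Kcnd2 and GTG or GTA in the other stretches shown.
Kcnd2: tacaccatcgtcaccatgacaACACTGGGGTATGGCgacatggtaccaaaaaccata
Kcna1: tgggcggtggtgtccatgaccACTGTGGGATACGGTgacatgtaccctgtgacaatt
Kcna2: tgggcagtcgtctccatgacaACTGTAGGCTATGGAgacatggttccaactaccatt
Kcna4: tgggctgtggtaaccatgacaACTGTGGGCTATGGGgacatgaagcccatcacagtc
Kcna5: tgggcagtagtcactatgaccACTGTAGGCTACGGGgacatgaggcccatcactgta
Kcnv2: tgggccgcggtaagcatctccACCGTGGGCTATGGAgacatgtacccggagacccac
Of the stretches shown, those of Kcna4 and Kcna5 were the closest pair, which matched at 47 of 57 bases (82.5%). Kcnd2 and Kcnv2 matched least, at 33 bases (57.9%). In the Kv1 genes the stretch lies within 1 exon, at chr6:126642207-126642263 on the minus strand for Kcna1, chr3:107105203-107105259 on the plus strand for Kcna2, chr2:107296474-107296530 on the plus strand for Kcna4 and chr6:126533724-126533780 on the minus strand for Kcna5. In Kcnd2 and Kcnv2 an intron divides it, so that the Kcnd2 stretch joins chr6:21217385-21217413 to chr6:21714135-21714162 and the Kcnv2 stretch joins chr19:27324149-27324157 to chr19:27333642-27333689, each on the plus strand. Kcna5 and Kcna1 are neighbours on chromosome 6, 104984 bases apart, followed by Kcna6, and Kcna2 lies between Kcna3 and Kcna10 on chromosome 3. Kcnip2 spans chr19:45791839-45816061 on the minus strand and Kcnab1 spans chr3:65109384-65378223 on the plus strand.

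Levels are given as CPM (counts scaled to a common library size) on library sizes scaled by the trimmed mean of M values (TMM) over the 12 libraries, as mean ± SD with n = 3 mice per group. A gene was called where edgeR's quasi-likelihood test gave an adjusted P value under 0.05, over all genes tested, together with a fold change of at least 1.5. Summed gene counts ranged from 116127966 to 160676189 per library, with medians of 137556236 in control atria, 120619011 in CUG960 atria, 130664289 in control ventricles and 152709789 in CUG960 ventricles. Ventricular CUG960 libraries were deeper than ventricular control libraries and had a smaller share of mitochondrial transcripts (15.3% to 18.4% against 19.6% to 20.5%), and the part of either in the ventricular results was not tested. The shares in atria were 10.9% to 12% and 11.8% to 12.2%. The labelled chambers carried their own markers. Myl7, the atrial regulatory light chain, was at 2521 CPM or more in every atrial library and at 55.9 CPM or less in every ventricular library, and Irx4, a ventricular transcription factor, was at 22.7 CPM or more in every ventricular library and at 0.065 CPM or less in every atrial library.

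**Figure D1:**
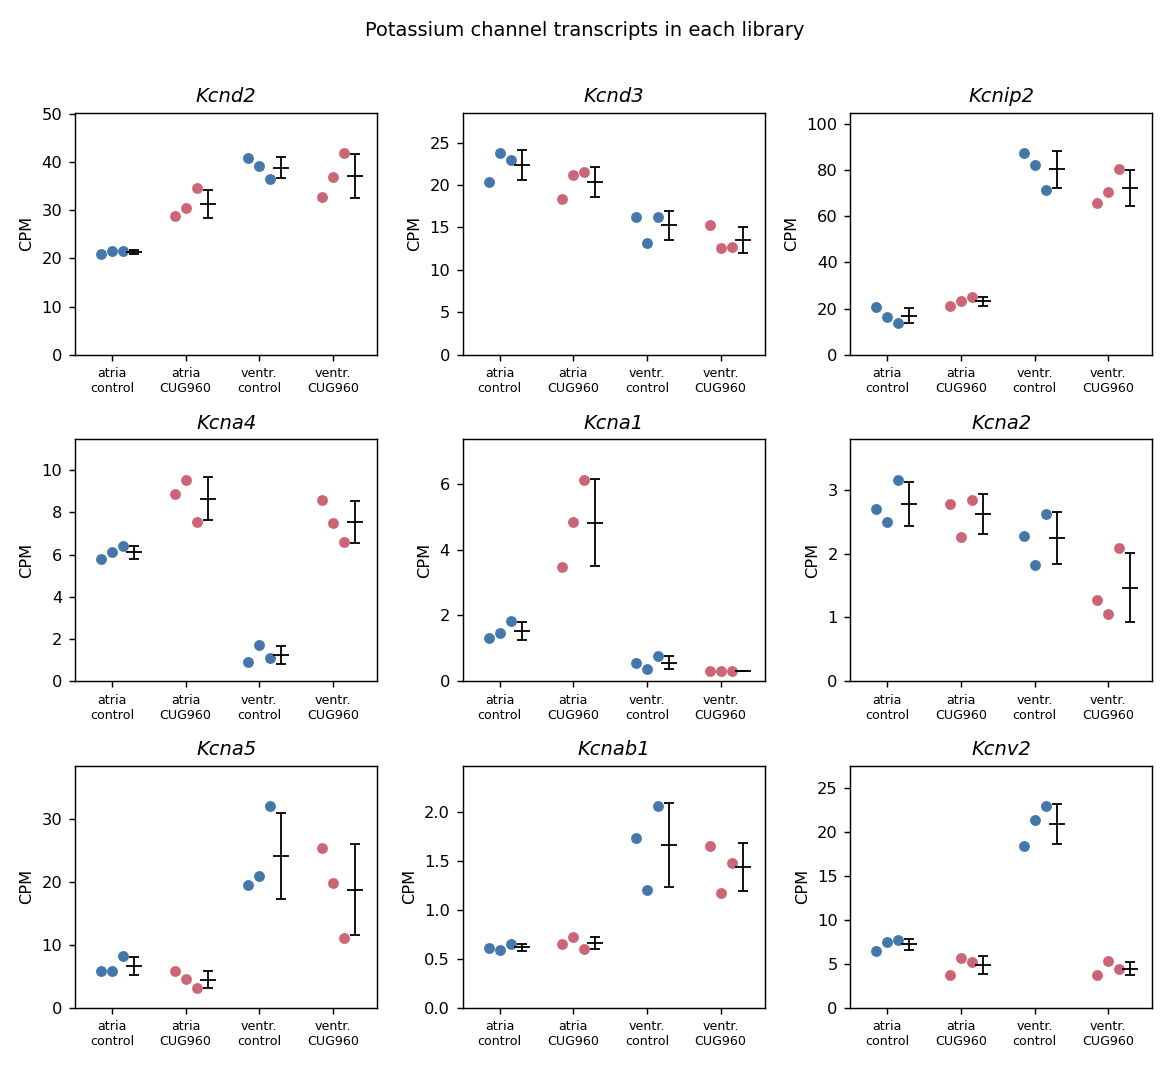
CPM of each of the 9 genes in the 12 libraries, with control libraries in blue, CUG960 libraries in red and the mean ± SD of each group in black beside its points. Kcna4 in ventricles and Kcna1 in atria are higher in every CUG960 library than in any control library of that chamber, and Kcnv2 in ventricles is lower, at 3.70 to 5.26 against 18.5 to 22.9 CPM.

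The first question was how these genes differed between CUG960 and control ventricles. Kcna4 and Kcnv2 changed, in opposite directions, and the other 7 genes did not pass the test. Of the 9 genes, 2 were called (22.2%), beside 4.75% of the 16909 genes tested, with 1 higher and 1 lower (11.1% each) beside 3% and 1.76% of all genes. Their median log2 fold change was −0.21, against −0.01 over all genes.

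Kcna4 was at 0.904, 1.70 and 1.09 CPM in the control ventricles of V327, V333 and V334. It reached 8.57, 7.50 and 6.60 CPM in the CUG960 ventricles of V119, V120 and V123. The lowest CUG960 library therefore stood above the highest control library by a wide margin. Kcna4 rose 6.15-fold, with means of 1.23 ± 0.417 CPM in control and 7.56 ± 0.99 CPM in CUG960 ventricles (log2 fold change 2.62, standard error 0.22, 95% interval 2.11 to 3.13, adjusted P value 2.1e-04). Leaving out any 1 of the 6 mice kept the call, with log2 fold changes of 2.44 to 2.92.

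Kcnv2 was at 18.5, 21.4 and 22.9 CPM in the ventricles of the 3 control mice. In those of V119, V120 and V123 it was at 3.70, 5.26 and 4.40 CPM, so the groups were again fully apart. Kcnv2 fell, with means of 20.9 ± 2.27 CPM in control and 4.45 ± 0.783 CPM in CUG960 ventricles (log2 fold change −2.23, standard error 0.14, 95% interval −2.56 to −1.91, adjusted P value 4.2e-05). The call held in each of the 6 fits without 1 mouse, with log2 fold changes of −2.37 to −2.11.

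The partners of the fast transient outward current differed little between the ventricular groups. Kcnd2 was at 38.8 ± 2.21 CPM in control and 37.1 ± 4.55 CPM in CUG960 ventricles, with a log2 difference of −0.06 (95% interval −0.29 to 0.16, adjusted P value 0.74). For Kcnip2 the levels were 80.2 ± 8.02 and 72.2 ± 7.66 CPM, with a log2 difference of −0.15 (95% interval −0.38 to 0.08, adjusted P value 0.40). Kcnd3 was at 15.2 ± 1.75 and 13.5 ± 1.5 CPM, with a log2 difference of −0.17 (95% interval −0.43 to 0.10, adjusted P value 0.41). In each of these 3 genes the libraries of the groups overlapped, and the interval left out a change of 1.5-fold in either direction. The table gives 1 value per gene, and the exon usage of Kcnd3 and Kcnip2 transcripts was not analysed here.

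The ventricular levels of Kcna5 were 19.6, 20.9 and 32.0 CPM in control mice and 25.4, 19.8 and 11.1 CPM in CUG960 mice, which overlapped (log2 difference −0.37, 95% interval −0.99 to 0.26, adjusted P value 0.45). Kcna1, at 38 to 85 reads per ventricular library, was at 0.557 ± 0.199 CPM in control and 0.308 ± 0.00974 CPM in CUG960 ventricles, with a log2 difference of −0.85 (95% interval −1.57 to −0.13, adjusted P value 0.13). For Kcna2 the levels were 2.24 ± 0.406 and 1.47 ± 0.546 CPM (log2 difference −0.61, adjusted P value 0.18). Among the alternatives run, Kcna2 was called only without V123, whose ventricles had the highest Kcna2 level of the CUG960 group (log2 fold change −0.95, adjusted P value 0.046). Kcnab1, at 1.67 ± 0.432 and 1.44 ± 0.246 CPM, overlapped between groups (log2 difference −0.21, adjusted P value 0.61). The groups were fully apart for 3 of the 9 genes in ventricles, beside 31.2% of all genes tested.

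Markers of atrial cardiomyocytes were examined beside Kcna4, which is an atrially enriched gene in the control mice. In CUG960 ventricles 2 of the 8 atrial markers were called, Nppa (log2 fold change 1.3, adjusted P value 0.031) and Bmp10 (log2 fold change −4.06, adjusted P value 0.0016), and none was at 0 in any library. The summed level of the 8 markers was 949, 905 and 1053 CPM in the ventricles of V327, V333 and V334. It was 945, 1244 and 1311 CPM in those of V119, V120 and V123, with Pam the most abundant in each. Myl7, the atrial light chain, was at 8.02, 4.98 and 19.3 CPM in the control ventricles. In CUG960 ventricles it was at 0.192, 0.304 and 55.9 CPM. Nppa, the gene of atrial natriuretic peptide, was at 48.6, 54.4 and 84.8 CPM in control and 86.6, 224 and 151 CPM in CUG960 ventricles, fully apart. Without V123, the mouse with the highest ventricular Myl7, the Kcna4 log2 fold change was 2.71 (adjusted P value 5.2e-04). The part of atrial markers in the Kcna4 result was not tested. Ventricular markers, summed, were at 15688 to 19706 CPM in control and 18147 to 19613 CPM in CUG960 ventricles, and none of the 8 was called. Fewer cells of a type and less RNA per cell cannot be told apart in such bulk libraries.

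**Figure D2:**
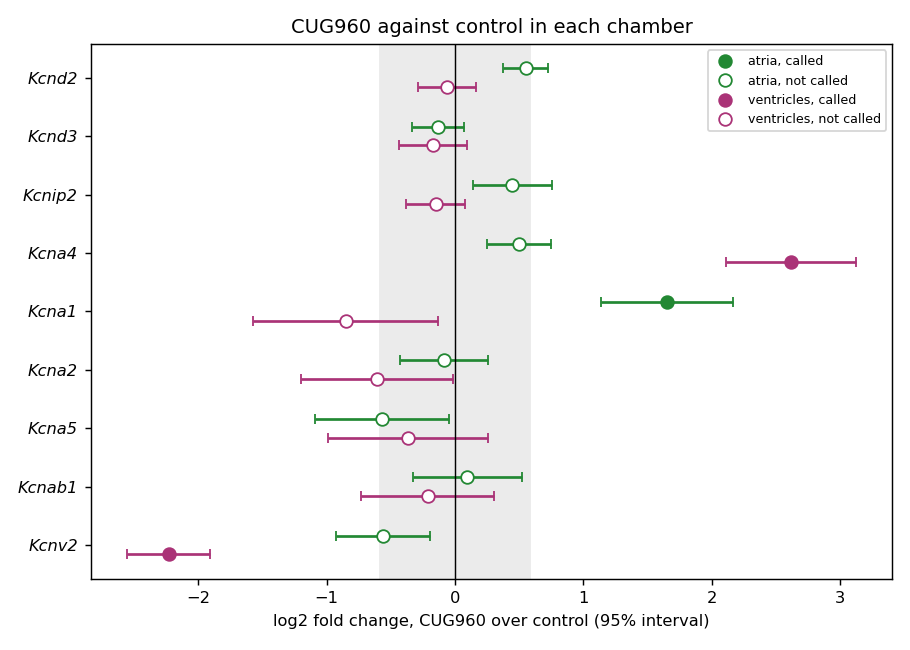
Log2 fold change of CUG960 over control for each gene in atria (green) and ventricles (purple), with 95% intervals of the edgeR fit, filled where the gene was called and with the range under a 1.5-fold change shaded. Kcna4 and Kcnv2 in ventricles and Kcna1 in atria lie outside the shaded range with their whole intervals, and the intervals of Kcna1 in the 2 chambers lie on opposite sides of 0.

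The same comparison in atria called 1 of the 9 genes, Kcna1, which is 11.1% beside 5.49% of the 17650 genes tested, of which 3.37% were higher and 2.12% lower. Smaller differences in Kcnd2 and Kcna4 passed the adjusted P value but not the fold limit, and Kcna4 lost the adjusted P value with all 12 libraries in 1 fit (0.082) and without V119, V120, V327 or V333 (0.060 to 0.072). The median log2 fold change of the 9 genes was 0.10, against −0.01 over all genes.

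Kcna1 was at 1.3, 1.45 and 1.83 CPM in the control atria of V327, V333 and V334. In the CUG960 atria of V119, V120 and V123 it was at 3.48, 4.84 and 6.12 CPM, all above the control range. The gene rose 3.14-fold, with means of 1.53 ± 0.272 CPM in control and 4.81 ± 1.32 CPM in CUG960 atria (log2 fold change 1.65, standard error 0.22, 95% interval 1.14 to 2.16, adjusted P value 0.0030) and 199 to 832 reads behind each library's value. It remained called in each of the 6 fits without 1 mouse, with log2 fold changes of 1.44 to 1.84.

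Kcnd2 was at 20.9, 21.5 and 21.6 CPM in control atria, the smallest spread of its 4 groups. The CUG960 atria had 28.9, 30.4 and 34.5 CPM, with no overlap. That is a 1.47-fold difference, just under the limit (log2 fold change 0.55, standard error 0.08, 95% interval 0.38 to 0.73, adjusted P value 0.0033). Kcna4 was at 5.77, 6.14 and 6.41 CPM in control and 8.87, 9.55 and 7.53 CPM in CUG960 atria, also without overlap. The difference was 1.42-fold (log2 fold change 0.50, standard error 0.11, 95% interval 0.25 to 0.75, adjusted P value 0.020).

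Another 3 genes had groups that did not overlap in atria without passing the adjusted P value in edgeR's test. Kcnip2 was at 17.0 ± 3.37 CPM in control and 23.2 ± 1.85 CPM in CUG960 atria (log2 difference 0.45, 95% interval 0.14 to 0.76, adjusted P value 0.061). Kcnv2 was at 7.20 ± 0.609 and 4.89 ± 1.04 CPM (log2 difference −0.56, 95% interval −0.93 to −0.19, adjusted P value 0.052), on the same side of 0 as its called change in ventricles. Kcna5 was at 6.64 ± 1.42 and 4.47 ± 1.3 CPM (log2 difference −0.57, 95% interval −1.09 to −0.05, adjusted P value 0.13). With DESeq2 all 3 passed the adjusted P value but not the fold limit (adjusted P values 0.010 for Kcnip2, 0.0052 for Kcnv2 and 0.038 for Kcna5), and Kcnip2 and Kcnv2 also did with all 12 libraries in 1 fit (0.039 and 0.038) and with no filter on low counts (both 0.021). Kcnip2 passed without TMM factors as well (0.038), Kcnv2 with upper quartile normalization (0.049), and without V327 Kcnip2 was called (log2 fold change 0.60, adjusted P value 0.017). With Kcna1, Kcnd2 and Kcna4 this makes 6 of the 9 genes whose atrial groups were apart, beside 35.7% of all genes tested. Kcnd3 (22.4 ± 1.78 and 20.4 ± 1.77 CPM), Kcna2 (2.78 ± 0.342 and 2.62 ± 0.318 CPM) and Kcnab1 (0.617 ± 0.0362 and 0.66 ± 0.0624 CPM) overlapped between the groups, with adjusted P values of 0.35, 0.74 and 0.77.

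Because Kcna1 and Kcna2 are also neuronal genes, the 18 markers of neurons and Schwann cells were read beside them. Of the 12 that could be tested in atria 2 were called, both lower in CUG960 atria, namely Dbh (log2 fold change −1.24), which encodes the enzyme that makes noradrenaline, and Mbp (−0.66), a myelin protein. The summed level was 83.3, 85.6 and 94.8 CPM in control atria. It was 69.7, 66.9 and 70.1 CPM in CUG960 atria, below the control range. Mean Mbp (27.9 and 17.6 CPM) and Cnp (26.8 and 22.0 CPM) were lower. Not every marker fell, and Uchl1 was at 6.93 to 9.13 CPM in control and 9.62 to 11.1 CPM in CUG960 atria. Nefl and Nefm also had higher means, at 0.045 CPM or less in every atrial library. Chat was at 0 in all 6 atrial libraries, and Cnp or Mbp was the most abundant marker. The sum of conduction system markers lay above the control range instead. It was 92.3, 87.4 and 75.6 CPM in control and 104, 99.7 and 105 CPM in CUG960 atria. Hcn4 (log2 fold change 2.55) and Vsnl1 (1.47) were called higher among the 9 of 10 markers tested. Cpne5 or Cacna1g was the most abundant, and Isl1 was at 0 in 3 of the 6 libraries. The list did not move as one, with a median log2 difference of −0.16. Tbx18 was lower, at 12.6 to 16.0 CPM in control and 9.43 to 9.89 CPM in CUG960 atria. Mean Cpne5 (31.8 and 23.8 CPM) and Tbx3 (4.07 and 2.63 CPM) were lower too, and mean Cacna1g (23.9 and 35.6 CPM) was higher. The part of either marker list in the Kcna1 result was not tested.

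Whether the genotype difference itself differed between chambers was tested as an interaction in 1 fit of all 12 libraries, given as the ventricular minus the atrial log2 difference. Kcna4, Kcnv2, Kcna1 and Kcnd2 passed at an adjusted P value under 0.05, which is 44.4% of the 9 genes beside 1.38% of the 18327 genes tested, with no fold limit. Since the 9 genes were chosen with earlier results of these data known, these shares are a description and no test of the set. For Kcna4 the term was 2.12 (standard error 0.26, adjusted P value 0.0021), a larger difference in ventricles. For Kcnv2 it was −1.67 (standard error 0.23, adjusted P value 0.0039), a deeper decrease in ventricles. Both passed in each of the 6 fits without 1 mouse.

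For Kcna1 the term was −2.51 (standard error 0.38, adjusted P value 0.0070), from a higher level in CUG960 atria and a lower mean in CUG960 ventricles, and it was at an adjusted P value of 0.056 without V120. The Kcnd2 term was −0.62 (standard error 0.13, adjusted P value 0.038), and it passed in only 1 of the 6 fits without 1 mouse, with adjusted P values of up to 0.19, and not on library totals without TMM factors (0.056). Kcnip2 had a term of −0.60 (adjusted P value 0.17), which passed with the mouse as a block, at −0.61 (adjusted P value 0.022). The terms of Kcnd3 (−0.04), Kcna2 (−0.53), Kcna5 (0.20) and Kcnab1 (−0.31) had adjusted P values of 0.57 or more.

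The chamber difference was then taken within each genotype. These comparisons use the same libraries as the comparisons of genotype, so they restate the same levels along the other axis. Scaling mattered here. On library totals without TMM factors the median log2 atrial over ventricular difference of all genes moved from 0.03 to 0.49 in controls and from 0.01 to 0.40 in CUG960 mice, and genes called higher and lower in atria went from 3194 and 2904 to 6918 and 1452 in controls and from 3021 and 2879 to 6028 and 1539 in CUG960 mice. Values below are on TMM sizes.

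In controls 7 of the 9 genes were called, 77.8% beside 34.9% of the 17451 genes tested, with 2 higher in atria (22.2% beside 18.3%) and 5 lower (55.6% beside 16.6%). Kcnip2 was the most ventricular, at 17.0 ± 3.37 CPM in atria and 80.2 ± 8.02 CPM in ventricles (log2 difference −2.24, 95% interval −2.58 to −1.91, adjusted P value 5.3e-06). Kcna5 (−1.87), Kcnv2 (−1.54), Kcnab1 (−1.44) and Kcnd2 (−0.87) were also lower in atria, with adjusted P values of at most 9.0e-04. Kcnd2 missed the fold limit without TMM factors, at −0.41. Higher in atria were Kcna4, at 6.11 ± 0.319 against 1.23 ± 0.417 CPM (log2 difference 2.31, 95% interval 1.80 to 2.82, adjusted P value 4.9e-05), and Kcna1, at 1.53 ± 0.272 against 0.557 ± 0.199 CPM (1.45, adjusted P value 0.0028). Kcnd3, at 22.4 ± 1.78 and 15.2 ± 1.75 CPM, had a log2 difference of 0.55 (adjusted P value 0.0022), under the fold limit on TMM sizes and past it without TMM factors (1.0). Kcna2 was not called at 0.31 (adjusted P value 0.17) and was called without TMM factors (0.76, adjusted P value 0.0062). The 2 Kv4 genes thus stood on opposite sides of 0 between chambers, Kcnd2 toward ventricles and Kcnd3 toward atria.

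In CUG960 mice 5 of the 9 genes were called, 55.6% beside 33.6% of the 17559 genes tested, with 2 higher in atria (22.2% beside 17.2%) and 3 lower (33.3% beside 16.4%). Kcna4 and Kcnv2 were not among them. Kcna4 was at 8.65 ± 1.03 CPM in atria and 7.56 ± 0.99 CPM in ventricles, with overlapping libraries (log2 difference 0.18, 95% interval −0.11 to 0.47, adjusted P value 0.26). Kcnv2 was at 4.89 ± 1.04 and 4.45 ± 0.783 CPM, again overlapping (log2 difference 0.12, 95% interval −0.30 to 0.54, adjusted P value 0.61). Both intervals leave out the chamber difference measured in controls, and the interaction given above is the test of it.

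Kcna1 had the widest chamber difference of the 9 genes in CUG960 mice, with 4.81 ± 1.32 CPM in atria and 0.308 ± 0.00974 CPM in ventricles (15.4-fold, log2 difference 3.95, 95% interval 3.41 to 4.48, adjusted P value 1.7e-06). Kcna5 (−2.08), Kcnip2 (−1.65) and Kcnab1 (−1.14) remained lower in atria, with adjusted P values of at most 0.0012. Kcna2 was called higher in atria (0.83, adjusted P value 0.020), but not without V119 (0.69, adjusted P value 0.13) or without V120 (0.75, adjusted P value 0.060). Kcnd2, at 31.3 ± 2.92 and 37.1 ± 4.55 CPM, was not called (−0.26, adjusted P value 0.063), and its sign turned without TMM factors (0.13). Kcnd3 was at 0.58 (adjusted P value 0.0015), just under the fold limit.

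**Figure D3:**
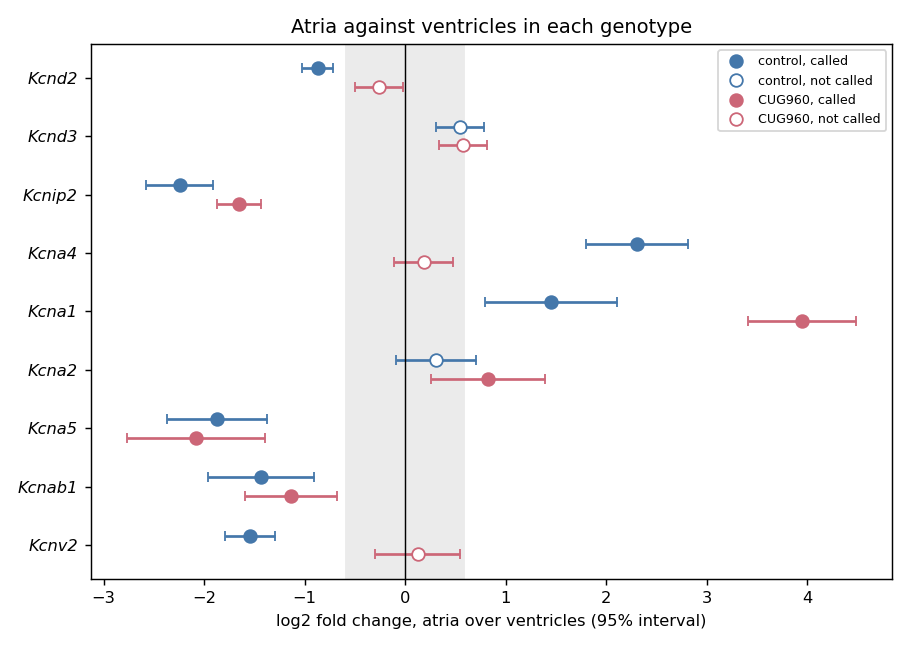
Log2 fold change of atria over ventricles for each gene in control (blue) and CUG960 (red) mice, with 95% intervals of the edgeR fit on TMM library sizes, filled where called and with the range under a 1.5-fold change shaded. Kcna4 and Kcnv2 lie away from 0 in controls, at 2.31 and −1.54, and next to 0 in CUG960 mice, at 0.18 and 0.12, while Kcna1 moves from 1.45 to 3.95.

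To set the genes side by side, CPM was divided by the merged exon length of each gene, giving a level per kilobase. In control atria Kcnip2 (4.89 ± 0.968) and Kcnd2 (4.14 ± 0.077) led with overlapping ranges, followed by Kcnd3 (2.33 ± 0.186) and Kcna5 (2.32 ± 0.497), which overlapped as well. Kcnv2 (1.41 ± 0.119) and Kcna4 (1.26 ± 0.0659) overlapped too, and Kcna1 (0.32 ± 0.0568), Kcna2 (0.234 ± 0.0287) and Kcnab1 (0.0718 ± 0.00421) came last, each below the range of the one before. In control ventricles Kcnip2 (23.1 ± 2.31) stood far above Kcna5 (8.45 ± 2.39) and Kcnd2 (7.54 ± 0.429), which overlapped. Kcnv2 (4.09 ± 0.444) and Kcnd3 (1.59 ± 0.182) followed, and Kcna4 (0.255 ± 0.0862), Kcnab1 (0.194 ± 0.0502), Kcna2 (0.188 ± 0.0341) and Kcna1 (0.117 ± 0.0416) formed a low group in which neighbours overlapped.

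The order moved with genotype mainly in its middle. In CUG960 ventricles Kcnip2 (20.8 ± 2.20), Kcnd2 (7.21 ± 0.883) and Kcna5 (6.55 ± 2.53) stayed on top, the last pair overlapping. Kcna4 (1.56 ± 0.205) now overlapped with Kcnd3 (1.41 ± 0.157) and stood above Kcnv2 (0.871 ± 0.153), with Kcnab1 (0.167 ± 0.0286) and Kcna2 (0.123 ± 0.0459) overlapping below it and Kcna1 (0.0645 ± 0.00204) last. In CUG960 atria Kcnip2 (6.66 ± 0.531) and Kcnd2 (6.07 ± 0.567) overlapped, and Kcnd3 (2.13 ± 0.185), Kcna4 (1.79 ± 0.213), Kcna5 (1.56 ± 0.454), Kcna1 (1.007 ± 0.276) and Kcnv2 (0.956 ± 0.203) formed a run in which each overlapped with the next, above Kcna2 (0.22 ± 0.0267) and Kcnab1 (0.0768 ± 0.00727). With the length of the longest transcript in place of the merged exons, Kcna4 and Kcnab1 changed places in control ventricles and Kcna4 and Kcnd3 in CUG960 ventricles, pairs whose ranges overlapped.

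As shares of the summed level per kilobase of the 7 pore and modifier genes, Kcna4 and Kcnv2 lay apart between the ventricular groups, in opposite directions. The Kcna4 share was 1.16% ± 0.442 in control and 8.77% ± 0.286 in CUG960 ventricles, and the Kcnv2 share was 18.4% ± 1.23 and 4.95% ± 1.08. Kcnd2 (34.3% ± 5.38 and 41.2% ± 9.54) and Kcna5 (37.5% ± 6.22 and 36.1% ± 10.7) made up most of the sum in both groups with overlapping ranges. The sum itself was 22.2 ± 2.46 in control and 17.8 ± 1.88 CPM per kilobase in CUG960 ventricles, and these ranges did not overlap. It includes the modifier Kcnv2, at 4.09 ± 0.444 in control and 0.871 ± 0.153 in CUG960 ventricles. A sum of the pore genes without Kcnv2 was not taken. The atrial sums were also apart but higher in CUG960 mice, at 11.17 to 12.96 in control and 13.05 to 14.16 in CUG960 atria. In atria the Kcnd2 share was 34.5% ± 1.98 in control and 44.2% ± 2.76 in CUG960 mice, and the Kcna1 share was 2.65% ± 0.27 and 7.29% ± 1.73. The Kcna5 share was 19.2% ± 2.76 and 11.5% ± 3.82, and the Kcnv2 share was 11.7% ± 0.422 and 6.93% ± 1.23. The shares are descriptions and carry no test.

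**Figure D4:**
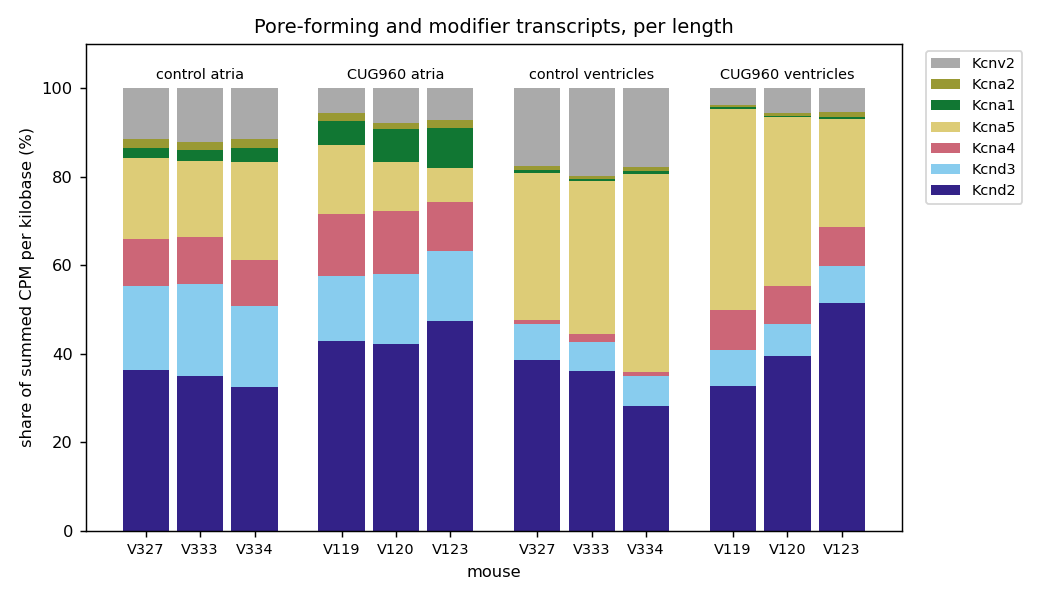
Share of each of 7 genes in their summed CPM per kilobase (%), 1 bar per library, with mice grouped by chamber and genotype. The Kcna4 band widens from 1.16% to 8.77% on average in CUG960 ventricles while the Kcnv2 band narrows from 18.4% to 4.95%, and the Kcna1 band is widest in CUG960 atria.

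The ratio of the accessory Kcnip2 to its pore partners Kcnd2 and Kcnd3, per kilobase, was 0.76 ± 0.181 in control and 0.813 ± 0.00989 in CUG960 atria, and 2.52 ± 0.157 in control and 2.41 ± 0.0426 in CUG960 ventricles. Ranges of the genotypes overlapped in both chambers. The ratio of Kcnd2 to Kcnd3 was 1.78 ± 0.116 in control atria, at most 1.91, and 2.86 ± 0.167 in CUG960 atria, at least 2.67. In ventricles it was 4.79 ± 0.676 and 5.18 ± 1.08, with overlap.

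Other genes of these channel families were read from lists chosen from general knowledge. Over all genes tested, 5.49% were called in atria and 4.75% in ventricles. Of the 4 remaining Kv1 pore genes, 2 could be tested in either chamber, Kcna6 and Kcna7, and neither was called, with a median log2 difference of −0.05 in atria and −0.41 in ventricles. Kcna6, which lies next to Kcna1, had log2 differences of 0.09 in atria and −0.50 in ventricles, with adjusted P values of 0.80 and 0.20. Kcna3 and Kcna10, the neighbours of Kcna2, were at 0.0588 CPM or less in every library and were not tested.

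Among the 11 genes of Kv2 and silent subunits, 5 were tested in atria and 1 was called, and of the 4 tested in ventricles none was called, with median log2 differences of −0.64 and 0.00. Kcnf1, which encodes the silent subunit Kv5.1, was at 10.5, 10.6 and 6.84 CPM in control and 5.98, 4.29 and 5.93 CPM in CUG960 atria, fully apart. It fell by 0.79 on the log2 scale (adjusted P value 0.032), though it passed in only 1 of the 6 fits without 1 mouse. None of the 4 Kv3 pore genes was called in either chamber (medians −0.30 in atria and −0.05 in ventricles).

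Of 13 further Kv4 and auxiliary subunits, 12 were matched and 10 tested in each chamber, and Kcne1 was the 1 called in each, with list medians of −0.24 in atria and −0.09 in ventricles. Kcne1, the beta subunit of the slow delayed rectifier, was at 0.768, 0.579 and 0.669 CPM in control and 2.02, 1.76 and 2.20 CPM in CUG960 ventricles. It rose by 1.57 on the log2 scale (adjusted P value 0.0016) and kept its call in each of the 6 fits without 1 mouse. In atria, at 0.0689 to 0.37 CPM, the log2 fold change was 1.46 (adjusted P value 0.042), and it passed in only 1 of those 6 fits.

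Among 15 scaffold and trafficking partners, 1 was called in atria and none in ventricles (medians 0.04 and 0.02). With no fold limit, 4 in atria and 1 in ventricles had an adjusted P value under 0.05, beside 14.6% and 9.94% of all genes tested. Dlg4, a scaffold that binds the tails of Kv1 channels, was at 19.8, 20.4 and 19.3 CPM in control and 34.3, 33.0 and 31.3 CPM in CUG960 atria, a rise of 0.73 on the log2 scale (adjusted P value 3.9e-04) that was called in each of the 6 fits without 1 mouse. In ventricles it was at 2.89 to 3.93 CPM with a log2 difference of −0.02 (adjusted P value 0.96), and the interaction was −0.75 (adjusted P value 0.036).

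Of 14 transcription factors tied to the transient outward current, 13 were tested in atria and 1 was called, Hey2. None of the 14 was called in ventricles (medians −0.27 and −0.01). Under an adjusted P value of 0.05 alone were 5 in atria and 3 in ventricles, beside 14.6% and 9.94% of all genes tested. Hey2, a repressor with a known ventricular bias, was at 2.18, 2.13 and 2.08 CPM in control and 0.985, 1.43 and 1.59 CPM in CUG960 atria (log2 fold change −0.67, adjusted P value 0.049). It passed in only 1 of the 6 fits without 1 mouse. In ventricles Hey2 was not called but was also lower and fully apart, at 4.31 to 5.02 CPM in control and 2.90 to 3.79 CPM in CUG960 mice. Its ventricular log2 differences without 1 mouse were −0.65 to −0.44, beside −0.82 to −0.49 in atria.

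Marker lists of other cells gave these counts of called genes. In ventricles 4 of 8 smooth muscle markers (Myh11, Tagln, Mylk and Lmod1) and 4 of 8 adipocyte markers (Plin1, Cfd, Fabp4 and Car3) were lower. Of 12 tested neuron and Schwann cell markers 3 were called, among them Dbh (lower) and Uchl1 (higher). Ryr2 alone of the 8 cardiomyocyte markers was lower. Of the fibroblast, endothelial, leukocyte, conduction system, skeletal muscle and erythroid markers none was called in ventricles. The endothelial list there still had a median log2 difference of −0.35, with 3 of 8 markers under an adjusted P value of 0.05, beside 9.94% of all genes. Its sum was 967, 818 and 902 CPM in control and 679, 665 and 706 CPM in CUG960 ventricles, fully apart. In atria the called markers besides those given above were Tagln (higher) among 8 of smooth muscle, Postn (lower) among 8 of fibroblasts, Pecam1 and Tek (lower) among 8 of endothelium, Ckm, Tnnt3 and Tnni2 (lower) among the 5 tested of skeletal muscle, and Hey2 (lower) and Lbh (higher) among the 7 tested of ventricular cardiomyocytes, while none of the leukocyte, adipocyte, erythroid, atrial or general cardiomyocyte markers was called. Ckm was at 457 to 789 CPM in every atrial library, while Myh1, Myh2 and Myh4 of the same list were at 0.0838 CPM or less there. Ckm therefore cannot be read as a marker of skeletal muscle cells here. The part of these marker lists in the channel results was not tested.

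For the 3 called genes, the genes with the most similar pattern were taken by Pearson's r of log2 CPM over the 12 libraries, out of 13112 genes that averaged 1 CPM or more. The libraries share chambers, genotypes and mice, so r describes the groups as much as single mice. Kcna1 was most like Sema5a (r = 0.984), Chst11 (0.983) and Efna2 (0.981). Subtraction of each chamber's mean leaves genotype, its interaction with chamber, and mouse. After it the closest were Psat1 (0.931), Rerg (0.929) and again Sema5a (0.924). A high r did not mean a difference of the same size. In atria the log2 differences of these genes ran from 0.50 for Efna2 to 1.44 for Rerg, beside 1.65 for Kcna1.

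The genes most like Kcna4 were BC037034 (0.964), Aass (0.963) and Acss3 (0.958), and after subtraction of chamber means Plekha7 (0.983), Scin (0.978) and T2 (0.966). Plekha7, an adherens junction protein, had a log2 difference of 2.92 in ventricles and 0.51 in atria, beside 2.62 and 0.50 for Kcna4. The other genes most like Kcna4 had ventricular log2 differences from 0.85 for BC037034 to 2.48 for Aass. The genes most like Kcnv2 were Mlxipl (0.962), Fah (0.96) and Dhdh (0.948), and after subtraction of chamber means Capn3 (0.97), Rp1 (0.968) and Wrnip1 (0.966). Capn3, a muscle protease, had log2 differences of −2.53 in ventricles and −0.86 in atria, beside −2.23 and −0.56 for Kcnv2. The other genes most like Kcnv2 had ventricular log2 differences from −3.09 for Rp1 to −0.58 for Wrnip1.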

How the data were processed

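RNA-Seq was performed on poly(A)-selected RNA with a stranded, paired-end protocol. The deposited values are expected counts per gene, which per the study's methods the authors estimated with RSEM (version 1.3.1) on mm10 (GRCm38) with Ensembl annotation. All deposited values were whole, so rounding changed none. Of 51826 entries, 92 repeated an earlier symbol and 21965 were at 0 in all 12 libraries. RSEM divides reads that match several genes by probability. Kcnd3 shares 165 exon bases with the antisense Kcnd3os, at 23 to 57 counts against 1392 to 4133 for Kcnd3, and Kcnab1 shares 201 with A330015K06Rik, at 0 to 3 counts.

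Counts were filtered with filterByExpr, TMM-normalized and tested with edgeR (version 4.0.16, R 4.3.3), with Benjamini-Hochberg adjustment over all genes tested, after a check on simulated data. Each genotype comparison used the 6 libraries of its chamber, each chamber comparison the 6 of its genotype, and the interaction all 12. Intervals are 95%. Alternatives were DESeq2 (version 1.42.0), other normalizations, filters and fold limits, a block for the mouse, and fits without each mouse in turn. Atria and ventricles of 1 mouse share its number; deviations from group means correlated at 0.0302 to 0.135 over genes within a mouse (6 pairs) and −0.141 to 0.0536 between mice of one genotype (12 pairs), and pairs across genotypes at −0.15 to 0.124. Library totals limit precision for counting error only. With 3 mice against 3, an exact permutation test cannot go below 0.1. The study's methods give a log2 fold change of 1.5 as limit and its results a fold change of 1.5; the latter was used. Named genes were the 9 members, list genes called in a genotype comparison, the 3 most similar genes by each measure, markers, and chromosomal neighbours of the same family. Members and lists were chosen with earlier results of these data known. Some list genes and the sequence of 1 member are not reported here.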

Additional observations from a re-analysis of the deposited data

Results flagged for a closer look

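In 4 of the 9 genes, beside 1.38% of all genes tested, the genotype difference differed between chambers by the interaction test, here as the ventricular minus the atrial log2 difference. The 9 genes were chosen with earlier results of these data known, so these shares are a description. The interaction values were 2.12 for Kcna4, −1.67 for Kcnv2, −2.51 for Kcna1 and −0.62 for Kcnd2. Of the 6 fits without 1 mouse, Kcna4 and Kcnv2 passed in each, Kcna1 in 5 and Kcnd2 in 1. The log2 differences of Kcna4 were 2.62 in ventricles, where it was called, and 0.50 in atria, where it stayed under the fold limit. Those of Kcnv2 were −2.23 in ventricles, where it was called, and −0.56 in atria, where it did not pass the test. Kcna1 was higher in all 3 CUG960 atria than in any control atria and lower in all 3 CUG960 ventricles than in any control ventricles, at 0.297 to 0.315 against 0.361 to 0.759 CPM, where it did not pass the test (adjusted P value 0.13). Kcnd2 differed in atria (0.55) and was near 0 in ventricles (−0.06).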

How the results depend on the processing

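The calls of Kcna4 and Kcnv2 in ventricles and of Kcna1 in atria held under each alternative run. Over the 9 genes and 5 comparisons, 578 repeats kept direction and call, 19 gained a call, 15 lost one and 9 turned sign. Genes called in atria were 2 without TMM factors (Kcnd2 and Kcna1), an alternative chosen after seeing the data, 3 with no fold limit (with Kcna4), and 1 to 2 without 1 mouse. With a log2 fold change limit of 1.5, genes called between chambers were 4 in controls and 3 in CUG960 mice. Interaction calls were 2 to 4 without 1 mouse, lowest without V120 (Kcna4 and Kcnv2). Without TMM factors the sign turned for Kcnd2 in ventricles (0.044), Kcnd3 in the interaction (0.035), Kcnd2 between chambers in CUG960 mice (0.133) and Dlg4 in ventricles (0.087). Without 1 mouse, values that crossed 0 were −0.16 to 0.018 for Kcna2 in atria, −0.159 to 0.021 for Kcnd2 in ventricles, −0.21 to 0.078 for the Kcnd3 interaction and −0.134 to 0.065 for Dlg4 in ventricles. None of these values was called, and the cause was not tested. With the mouse as a paired block the interaction calls were 5, with Kcnip2 added (−0.615, adjusted P value 0.0224), as with DESeq2 (adjusted P value 0.0453), and no other call changed. Over all genes, calls at a log2 limit of 1.5 were 216 in atria, 199 in ventricles, 2233 between chambers in controls and 2200 in CUG960 mice, and with no fold limit 2573, 1680, 9726 and 9517. Interaction calls over all genes were 660 with DESeq2 and 74 to 131 without 1 mouse, where fewer libraries entered the fit. In ventricles genes called higher and lower were 507 and 297 on TMM sizes and 779 and 187 without. Of levels per kilobase, 42 moved by less than 1 SD and 30 by more under another length or scaling. Kcna1 in ventricles rests on 38 to 85 reads, the fewest of any group of the 9 genes.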
